A study of Mus musculus with 4 samples.

Results

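The calcium pumps of myoblasts and the small proteins that act beside them were examined as 9 genes, Atp2a1, Atp2a2, Atp2a3, Atp2b1, Atp2b4, Sln, Pln, Srl and Pvalb, taken by gene name from the 24445 genes of the expression table of Tet2 KO and wild type (WT) cells. The set holds 5 pumps and 4 regulators, and all 9 were listed in the table. Tet2 is an enzyme that oxidises 5-methylcytosine in DNA, and the study asked how its loss changes transcription in muscle precursor cells. RNA was sequenced from 4 libraries of primary myoblasts, 2 of them WT and 2 Tet2 KO, both groups on the C57BL/6 background. Per the study's methods, the Tet2 KO is constitutive and removes exon 3, so every cell of the mouse carries it, and young adult males were used where nothing else was stated; the labels give no age. Satellite cells, which are muscle stem cells, had been sorted from the hindlimb as viable CD45-, CD11b-, CD31-, Sca1- cells positive for CD34 and Integrin a7. In both groups they were then grown in proliferating medium on collagen for 3 days or more, when they had become MyoD+ myoblasts. The labels name no agent in either group. For each gene the authors' table gives 1 FPKM for each group (FPKM is the number of fragments divided by the transcript's kilobases and by the depth in units of 1000000 fragments). There was no value per library, so no standard deviation, no replicate check and no test stands beside any difference given here.

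Muscle contracts when calcium leaves the sarcoplasmic reticulum (SR) and relaxes when it is pumped back. The pump that returns it is SERCA, an ATPase in the SR membrane, and its 3 genes differ in where they are used. Atp2a1 encodes SERCA1 of fast skeletal muscle, Atp2a2 encodes SERCA2 of slow muscle, heart and most other cells, and Atp2a3 encodes SERCA3, known from blood cells and some epithelia. A second family, the plasma membrane calcium ATPases (PMCA) encoded by the Atp2b genes, moves calcium out of the cell. Sarcolipin (Sln) and phospholamban (Pln) are short membrane proteins that bind SERCA and lower its activity. Sarcalumenin (Srl) is a calcium binding glycoprotein of the SR lumen, and parvalbumin (Pvalb) is a soluble calcium buffer of fast fibres.

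Of these genes, Atp2a1, Sln and Srl were lower in Tet2 KO, each at about 40% of its WT level (39.3%, 41.3% and 39.4%). The broadly expressed pumps Atp2a2 and Atp2b1 had 92.6% and 105% of their WT levels. Atp2b4 had 60.4% and Atp2a3 had 149%. Pln had 96.8% and Pvalb had 51.9%, but both were under 1 FPKM in each group.

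**Figure D1:**
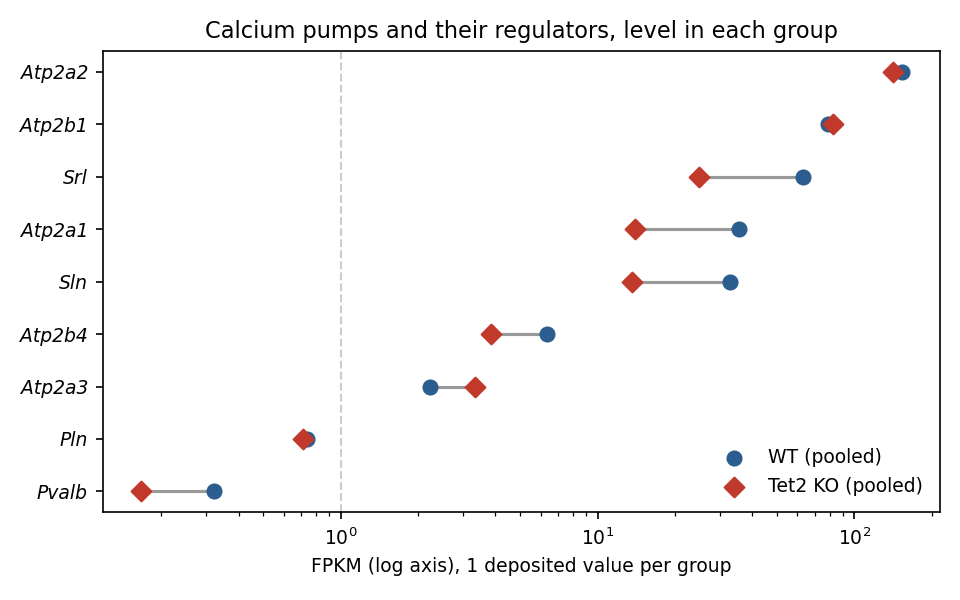
FPKM of the 9 genes on a log axis, with a blue circle for the authors' WT value and a red diamond for their Tet2 KO value, ordered by level; the dashed line is at 1 FPKM. The order is the same in both groups, and the long lines at Srl, Atp2a1 and Sln are ratios of 39.4%, 39.3% and 41.3%.

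The bases upstream of 3 pump genes are shown to set the lower pump, Atp2a1, beside the broadly expressed Atp2b1 and beside Atp2a3, which was higher in Tet2 KO. RefSeq windows of 250 bases before a transcript start were at hand for 6 of the 9 genes, in 8 windows, from a table on the build GRCm38.p6, and each window was found at 1 place in mm9, the build of the expression table. There was none for Atp2a2, Sln and Srl. The windows were searched on both strands for the E-box CANNTG, the motif that MyoD and myogenin bind. Its CAGCTG form, which every CANNTG count includes, was counted too. Also searched were TATAAA and a MEF2-like pattern (CTA and TAG with 4 bases of any kind between them), and CG pairs were counted. The pump sequences below are given 5′ to 3′ on the strand of the gene, with capitals for each CANNTG. For Atp2a1 the 35 bases next to the RefSeq start are left off, because the GENCODE vM1 annotation of mm9 places them in the first exon, which leaves 215 bases at chr7:133606623-133606837 on the minus strand. The Atp2a3 window is chr11:72774421-72774670 on the plus strand, and the first of 2 windows of Atp2b1 is chr10:98377026-98377275 on the plus strand.
Atp2a1: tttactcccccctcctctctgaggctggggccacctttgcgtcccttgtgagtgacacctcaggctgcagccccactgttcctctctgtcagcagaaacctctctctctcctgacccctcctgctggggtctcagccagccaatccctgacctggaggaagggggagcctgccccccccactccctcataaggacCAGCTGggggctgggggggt
Atp2a3: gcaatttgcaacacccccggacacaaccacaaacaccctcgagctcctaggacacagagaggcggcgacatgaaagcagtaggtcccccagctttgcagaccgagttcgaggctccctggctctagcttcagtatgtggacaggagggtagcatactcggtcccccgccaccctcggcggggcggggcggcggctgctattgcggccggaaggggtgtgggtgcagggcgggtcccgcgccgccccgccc
Atp2b1: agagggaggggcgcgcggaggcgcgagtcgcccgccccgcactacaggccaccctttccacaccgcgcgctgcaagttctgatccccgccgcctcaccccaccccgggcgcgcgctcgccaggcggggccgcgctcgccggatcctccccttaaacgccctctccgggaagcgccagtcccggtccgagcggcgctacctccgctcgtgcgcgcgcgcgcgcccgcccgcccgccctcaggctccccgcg
The Atp2a1 window held 1 E-box, a CAGCTG starting at base -55 from the RefSeq start, and 3 CG pairs in its full 250 bases. Of all 32851 windows in the table, 13.0% held a CAGCTG and 66.2% held any CANNTG. The Atp2a3 window held no E-box and 20 CG pairs. The Atp2b1 window shown held no E-box and 43 CG pairs, and its other window, at chr10:98377536-98377785, held 41, where the median over all windows was 6 with quartiles of 2 and 16. Atp2a1 thus had fewer CG pairs than the median window, and Atp2a3 and Atp2b1 had more than the upper quartile. The Atp2b4 window, of a pump that was not 2-fold lower, held 1 CANNTG at base -107 and 2 CG pairs, close to the counts of Atp2a1, but its RefSeq start lies inside the gene as vM1 draws it. The Pln window held 1 CANNTG at base -59, 1 TATAAA and 1 CG pair. Of 2 Pvalb windows, the one inside the annotated gene held 1 CANNTG at base -111 and 23 CG pairs, and the other held no E-box and 4 CG pairs. The MEF2-like pattern was in none of the 8 windows and in 3.20% of all windows. Other forms of the MEF2 motif were not searched, so these counts do not show whether a window holds a MEF2 site. These counts describe letters in the windows only, and neither binding nor methylation was measured here.

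The libraries were first described as a whole. Low FPKM values multiplied by transcript length fell on regular steps, which were taken as single fragments. On that reading, the depth behind the combined values was about 51.3 for Tet2 KO and 51.6 for WT, in units of 1000000 fragments. The depth of a single library is not shown by these values. Tet2 itself had 5.79 FPKM in Tet2 KO against 6.64 in WT, a value over the whole gene that does not show the deleted exon. The 6 myoblast markers (Pax7, Myf5, Myod1, Des, Cdh15, Itga7) were all present, with summed levels of 1028 FPKM in Tet2 KO against 1153 in WT. The 6 markers of differentiating muscle (Myog, Tmem8c, Myh3, Ckm, Acta1, Tnnc2) were all lower in Tet2 KO, at 0.258 to 0.484 of WT, and summed to 651 and 1713 FPKM. The 8 leukocyte markers were all higher in Tet2 KO, at 2.11 to 4.81 times WT, and summed to 365 and 92.8 FPKM, although CD45+ and CD11b+ cells had been sorted out before culture. Their defining genes were not at 0, since Ptprc (CD45) had 5.67 and 1.36 FPKM and Itgam (CD11b) had 10.1 and 2.09 FPKM. Ly6a, the gene of Sca1, was at 288 FPKM in Tet2 KO against 278 in WT, although Sca1- cells had been taken. The 5 endothelial markers summed to 3.43 and 3.97 FPKM, and the 5 fibroblast markers, Ly6a among them, to 470 and 436 FPKM. Most of the fibroblast sum was Ly6a and Col3a1 (171 and 152 FPKM). The other fibroblast markers were low, with Pdgfra at 1.91 and 1.06, Col1a1 at 2.84 and 2.07, and Dcn at 7.04 and 3.15 FPKM. All 5 fibroblast markers were higher in Tet2 KO, at 1.04 to 2.23 times WT. Values are given below as Tet2 KO and then WT where both follow each other.

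To examine the SERCA pumps, the levels of the 3 genes were compared first. Atp2a2 was the most abundant, with 142 FPKM in Tet2 KO against 153 in WT. Atp2a1 had 14.0 FPKM in Tet2 KO against 35.5 in WT. Atp2a3 had 3.33 FPKM in Tet2 KO against 2.23 in WT. The myoblast cultures of both groups thus held mostly the broadly expressed SERCA2 transcript, with the fast muscle pump next and Atp2a3 lowest.

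Atp2a1 is listed on chromosome 7 of mm9 from 133572281 to 133606587, a span the table shares with the neighbouring gene Rabep2. In vM1 the gene itself runs from 133589372 to 133606622 on the minus strand, with 23 exons in its longest coding transcript of 3477 bases. Its level in WT was 2.55 times that in Tet2 KO, and its log2 ratio of Tet2 KO over WT, with 1 FPKM added to both values, was -1.29. Without the added FPKM the log2 ratio was -1.35, because the added 1 FPKM pulls ratios of low values toward 0. About 2491 and 6373 fragments stood behind the values, which by counting alone puts the Tet2 KO level between 37.5% and 41.1% of WT (exact 95% interval). That interval, like every interval given here, covers counting error only and leaves out the spread between mice or cultures. Rabep2, an endocytic adaptor gene in the same span, had 13.1 FPKM in Tet2 KO against 11.7 in WT, so the 2 genes of the span lay on opposite sides of an equal level.

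Atp2a2 spans 122903522 to 122952234 of chromosome 5 (minus strand), with 21 exons. Its log2 ratio was -0.11, with a counting interval of 91.4% to 93.9% of WT from about 41213 and 44708 fragments. Atp2a3 lies on chromosome 11 from 72774671 to 72806545 on the plus strand, with 22 exons. Its log2 ratio was 0.42, and 0.58 without the added FPKM, and its counting interval ran from 134% to 167% of WT on about 787 and 529 fragments. Atp2a3 was the only SERCA gene with a higher value in Tet2 KO. The leukocyte markers, which lay at 2.11 to 4.81 times WT, moved in the same direction as Atp2a3, and their part in its ratio of 1.49 was not tested.

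Summed over the 3 SERCA genes, the level was 159 FPKM in Tet2 KO against 191 in WT. FPKM is per length of transcript, so shares of this sum can be compared between genes. Atp2a1 made up 8.79% of it in Tet2 KO and 18.7% in WT. Atp2a2 made up 89.1% and 80.2%, and Atp2a3 made up 2.10% and 1.17%. Of the difference of 31.7 FPKM between the sums, Atp2a1 accounted for 21.6 FPKM (68.0%) and Atp2a2 for 11.3 FPKM (35.5%), while Atp2a3 was 1.10 FPKM higher in Tet2 KO. Atp2a2 was 10.1 times as abundant as Atp2a1 in Tet2 KO and 4.30 times in WT. The mix of SERCA transcripts in Tet2 KO thus held a smaller share of the fast muscle pump, beside a sum that was lower.

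**Figure D2:**
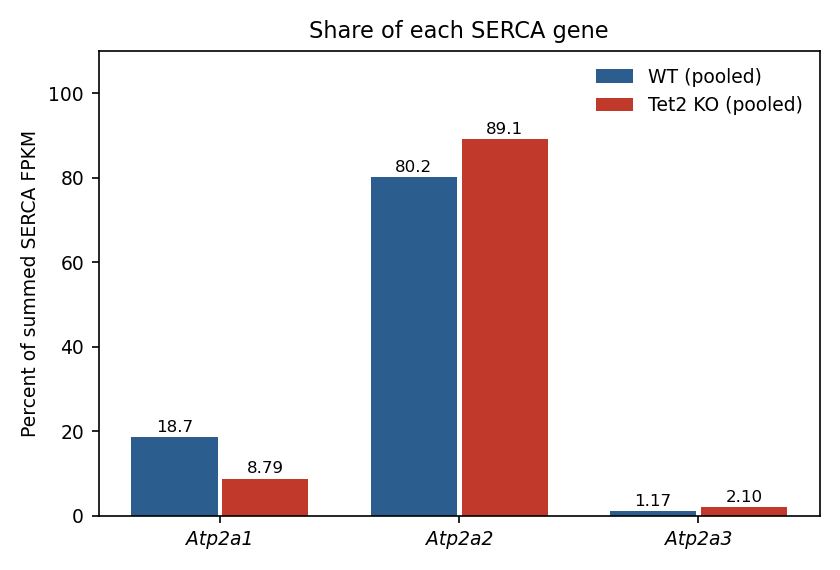
Share of Atp2a1, Atp2a2 and Atp2a3 in the summed SERCA FPKM, in percent, with blue bars for the WT group and red bars for the Tet2 KO group, 1 value from the authors per bar and no error. Atp2a1 stands at 18.7% in WT and 8.79% in Tet2 KO, and Atp2a2 at 80.2% and 89.1%.

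The PMCA pumps were examined next. Atp2b1, which encodes PMCA1, the pump found in nearly all cells, had 82.6 FPKM in Tet2 KO against 78.8 in WT. It lies on chromosome 10 from 98377786 to 98488777 on the plus strand, with 21 exons, and its log2 ratio was 0.07. Atp2b4, which encodes PMCA4, had 3.85 FPKM in Tet2 KO against 6.36 in WT. It is listed at 135599251 to 135650324 of chromosome 1 (minus strand), a span shared with Mir6903, and vM1 carries the gene on to 135697618. Its log2 ratio was -0.60, with a counting interval of 56.9% to 64.2% of WT from about 1678 and 2790 fragments. Atp2b4 was therefore lower by more than counting error, although not 2-fold. Atp2b2 and Atp2b3, known from nerve and sensory cells, were close to absent, Atp2b2 at 0.00612 and 0.0221 FPKM and Atp2b3 listed at 0 in Tet2 KO and at 0.0128 FPKM in WT. The PMCA sum was 86.4 FPKM in Tet2 KO against 85.2 in WT, and Atp2b1 made up 95.5% and 92.5% of it. The SERCA sum was 1.84 times the PMCA sum in Tet2 KO and 2.24 times in WT.

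The contrast of Atp2a1 with the other pumps was taken as a difference of log2 ratios. The mean log2 ratio of Atp2a2, Atp2a3, Atp2b1 and Atp2b4 was -0.06, with a range from -0.60 to 0.42. Atp2a1 lay 1.23 below that mean on the log2 scale and below each of the 4. Among all 5 pumps Atp2a1 was the only one at least 2-fold lower. Of all transcripts of SERCA and PMCA pumps, 245 FPKM in Tet2 KO against 276 in WT, Atp2a1 made up 5.69% and 12.9%.

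Among the regulators, Sln had 13.6 FPKM in Tet2 KO against 32.9 in WT. The gene is short, with 2 exons and a transcript of 515 bases on chromosome 9 from 53698058 to 53701656 on the plus strand. Its log2 ratio was -1.22, and the WT level was 2.42 times that in Tet2 KO. Its counting interval was 36.4% to 46.8% of WT, from about 359 and 873 fragments, and it is wider than that of Atp2a1 because a short transcript yields fewer fragments. Sln and Atp2a1 had similar levels in both groups, so their ratio was 0.973 in Tet2 KO and 0.925 in WT. Against the sum of all SERCA genes, Sln stood at 0.0855 in Tet2 KO and 0.172 in WT. Its proportion to the fast muscle pump was thus close in the 2 groups, and its proportion to all SERCA transcripts was lower in Tet2 KO.

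Srl was the most abundant of the regulators, with 24.8 FPKM in Tet2 KO against 63.1 in WT. The gene spans 4476979 to 4523075 of chromosome 16 (minus strand), with 7 exons. Its log2 ratio was -1.31, with a counting interval of 38.2% to 40.5% of WT from about 6370 and 16259 fragments. The ratio of Srl to Atp2a1 was 1.78 in Tet2 KO and 1.77 in WT. The pump, its short inhibitor and the luminal protein therefore kept nearly the same proportions to one another at the lower level. Of all genes averaging 1 FPKM or more, 30 had log2 ratios within the range of these 3, the 3 included. Levels in bulk RNA cannot separate fewer cells that express Atp2a1, Sln and Srl from less of their RNA in each cell.

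Pln had 0.713 FPKM in Tet2 KO against 0.737 in WT, a log2 ratio of -0.02. The interval that counting allows was wide, from 72.1% to 131% of WT on about 91 and 94 fragments, so a difference between the groups was not detectable at this depth. The table lists Pln within a span of chromosome 10 from 52997887 to 53099657 that it shares with Cep85l and Gm19395. In vM1, Pln runs from 53057492 to 53065805 on the plus strand inside a gene of the opposite strand, and the library kit does not keep the strand, so reads of the 2 genes cannot be told apart where they overlap. Cep85l had 5.79 and 6.44 FPKM. Pln stood at 0.00503 of Atp2a2, the pump it is known to regulate in heart, in Tet2 KO and at 0.00482 in WT. Pvalb had 0.166 FPKM in Tet2 KO against 0.320 in WT, about 8 and 16 fragments, on chromosome 15 from 78021542 to 78036830. Its counting interval ran from 18.6% to 124% of WT and includes equal levels.

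To place these genes among all others, the 11692 genes whose 2 FPKM values averaged 1 or more were taken, and a gene was counted as lower or higher when its log2 ratio reached 1 in either direction, that is, 2-fold. Among them 1.21% were lower and 2.08% were higher in Tet2 KO. Of the 9 calcium genes, 7 passed the level filter, 3 were lower (Atp2a1, Sln and Srl) and 0 were higher. The median log2 ratio was -0.60 over the 7 that passed and -0.18 over all 9, where it was -0.0044 over all genes that passed. The central 95% of all genes ran from -0.65 to 0.88, so Atp2a1, Sln and Srl lay outside it and the other 4 that passed lay inside it. Srl was at percentile 0.556, Atp2a1 at 0.624 and Sln at 0.804 of all genes, counted from the lowest ratio. Atp2b4 was at percentile 2.76, Atp2a2 at 24.4, Atp2b1 at 69.6 and Atp2a3 at 94.8. The markers of differentiating muscle had a median of -1.37, and their part in the lower values of Atp2a1, Sln and Srl was not tested. Set against a single marker of that stage, Atp2a1 was 0.0521 of Myog in Tet2 KO and 0.0642 in WT. Against Acta1, the skeletal muscle actin, it was 0.0674 and 0.0565, so the proportion was lower to 1 marker and higher to the other.

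**Figure D3:**
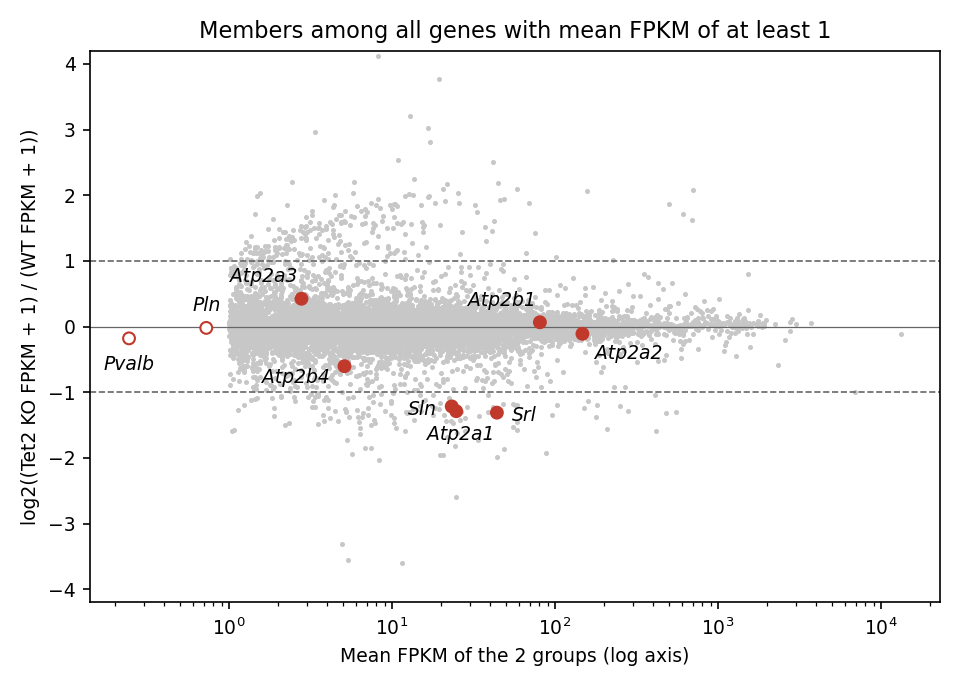
Each grey point is 1 of the 11692 genes averaging 1 FPKM or more, placed by mean FPKM of the 2 groups (log axis) and by the log2 ratio of Tet2 KO over WT with 1 FPKM added; the dashed lines mark 2-fold, red points are the calcium genes, open circles are those below the level filter, and 4 genes lie beyond the vertical axis. Atp2a1, Sln and Srl lie together below the lower dashed line, and Atp2a2 and Atp2b1 lie near 0 among the abundant genes.

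Genes with levels most like Atp2a1 were sought by the distance between the pairs of log2(FPKM + 1) values of the 2 groups, which rests on only 2 values per gene. The closest was Dusp27, with 14.3 FPKM in Tet2 KO against 34.6 in WT at a distance of 0.049. Next came Bex1, with 13.5 and 34.9 FPKM at 0.057. Sln was in position 3 at a distance of 0.116. Srl, with nearly the same ratio but a higher level, was in position 2210 at 1.13.

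The other genes of calcium handling were then examined in 7 lists holding 114 different genes, of which 86 were in the table and passed the level filter. Of these 86 genes, 7 were at least 2-fold lower and 2 at least 2-fold higher, with a median log2 ratio of -0.09. Over all genes that passed, 1.21% were lower and 2.08% were higher, and 2 of 86 is close to the latter share. Of the 21 genes of SR calcium release and storage, 18 passed the filter, 6 were lower, none was higher and the median was -0.64. Casq1, the calsequestrin that stores calcium in the SR of fast fibres, had 1.76 and 9.59 FPKM, a log2 ratio of -1.94. Casq2, the calsequestrin of slow and cardiac muscle, had 28.7 and 87.4 FPKM, a log2 ratio of -1.57. Cacna1s, the voltage sensor of the T-tubule, had 4.89 and 16.2 FPKM, a log2 ratio of -1.54. Hrc, a histidine rich calcium binding protein of the SR lumen, had 4.96 and 15.5 FPKM, a log2 ratio of -1.47. Trdn, the junctional protein triadin, and Tmem38a, the cation channel TRIC-A of the SR, were the other members past 2-fold. Jph2, which holds the T-tubule and the SR together and had the highest mean of the 2 groups in the list, had 51.5 and 66.3 FPKM, a log2 ratio of -0.36, although Casq2 was above it in WT and Fkbp1a in Tet2 KO. The lowest ratios of this list lay with muscle genes of the SR and the T-tubule, although not every such gene was 2-fold lower, as Jph2 shows. The part of the lower differentiation markers in these ratios was not tested.

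The other regulators of SERCA were examined as a list of their own. Of 20 genes, 19 were in the table, 17 passed the filter, and 2 were lower, Hrc and Trdn, which also belong to the release list. Over all genes that passed, 1.21% were lower. Trdn had 0.990 and 3.16 FPKM, a log2 ratio of -1.06. Its mean passed the filter although its Tet2 KO value was below 1 FPKM. Strit1, the gene of the SERCA activating micropeptide DWORF, was not analysed here. The median log2 ratio of the 17 was -0.21. Mrln, the inhibitory micropeptide myoregulin, had 4.79 and 8.46 FPKM, a log2 ratio of -0.71. The related micropeptide genes Smim6 (endoregulin) and 1810037I17Rik (another-regulin) had log2 ratios of -0.71 and 0.11, with 1.37 and 2.89 FPKM for the first and 45.8 and 42.3 FPKM for the second. In the cultures of both groups the most abundant transcript among these 3 was that of the broadly expressed inhibitor 1810037I17Rik, which was also above Sln. Calr, the chaperone calreticulin, was the most abundant gene of the list, with 403 and 405 FPKM.

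**Figure D4:**
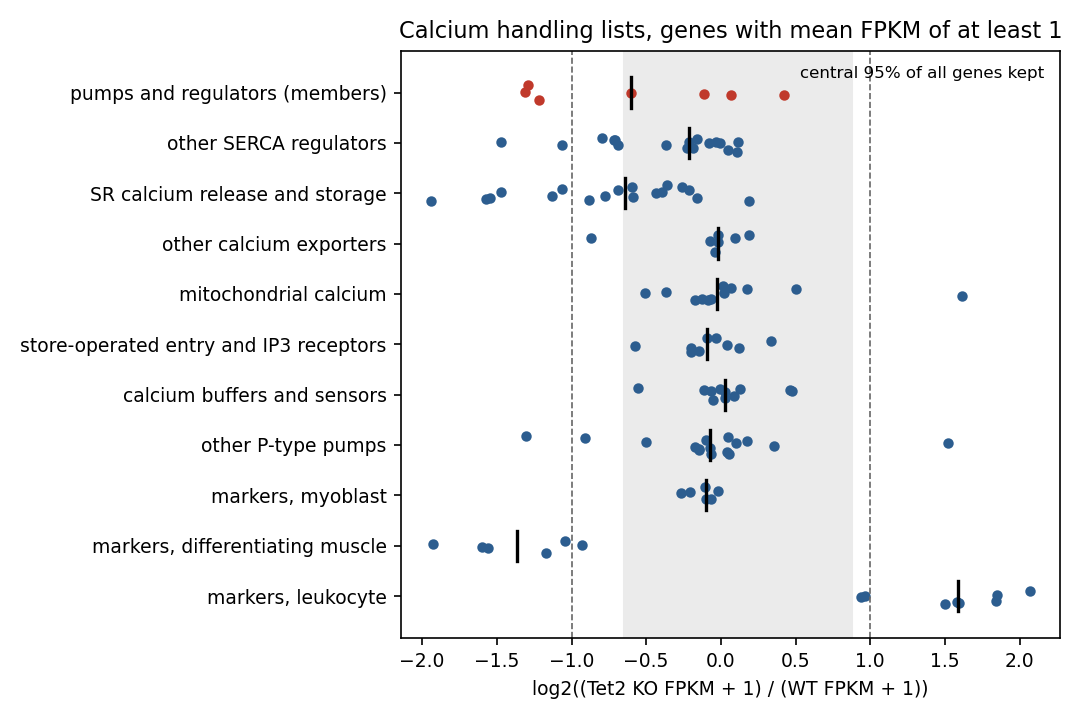
Log2 ratio of Tet2 KO over WT with 1 FPKM added, for each gene averaging 1 FPKM or more in the lists of calcium handling and of cell type markers; red points are the pumps and regulators, black bars are list medians, dashed lines mark 2-fold and the grey band is the central 95% of all genes. The medians are -0.60 for the pumps and regulators, -0.64 for SR release and storage, -1.37 for markers of differentiating muscle and 1.59 for leukocyte markers, and close to 0 for the exporters, the mitochondrial genes and the buffers.

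Calcium exporters, store-operated entry and buffers were examined last. Of 15 other calcium exporters, 7 passed the filter and none was 2-fold lower or higher, with a median of -0.02. Bsg, the gene of basigin, which is known to assist PMCA pumps, was the most abundant, with 215 and 218 FPKM. Slc8a3, a sodium and calcium exchanger of muscle and brain, had 1.16 and 2.95 FPKM, a log2 ratio of -0.87 that was chosen for mention after its value was seen. Of 13 genes of store-operated entry and IP3 receptors, 9 passed and none was past 2-fold, with a median of -0.09, and Saraf, a negative regulator of that entry, had 44.4 and 51.1 FPKM. Of 15 buffers and sensors, 11 passed and none was past 2-fold, with a median of 0.03, and Calm2, a calmodulin gene, had 398 and 432 FPKM.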

How the data were processed

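Satellite cells from the hindlimb of C57BL/6 mice were cultured to myoblasts, and total RNA of 4 libraries (2 WT, 2 Tet2 KO) was sequenced with a TruSeq RNA kit that does not keep strand. Per the submitters' processing notes, reads were aligned to mm9 with TopHat2 2.0.13, and the authors estimated FPKM with Cuffdiff 2.2.1. The deposited table holds 1 FPKM value per gene and group. How the libraries were combined, and the gene annotation, are not given in the sources used here. The authors' own log2 fold change, test statistic, p-value and q-value in that table were not used. No source states that the 2 libraries of a group came from separate mice.

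From the FPKM values, log2((Tet2 KO FPKM + 1) / (WT FPKM + 1)) was computed over the 11692 genes averaging 1 FPKM or more, and genes past 2-fold were counted. The count was also run on simulated data, with planted changes well past 2-fold in well expressed genes and little noise. That run checked the code only and does not measure calls near 2-fold or at low levels. With 1 value per group no test was run. Named were the 9 calcium genes, up to 4 genes past 2-fold and the most abundant gene (by the mean of both groups) of each list, Tet2, the cell type markers and the 3 genes nearest to Atp2a1. Other genes were added after their values were seen (those sharing a locus with a calcium gene, the micropeptides, the other Atp2b genes, Tmem38a, Mcu and Slc8a3). Some genes of the list of other P-type pumps are not reported here. The calcium genes and all lists were chosen with earlier results of these data known.

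Depth was read, by a step chosen after the data were seen, from genes with 1 annotated transcript of at least 1500 bases. Their FPKM multiplied by kilobases had a step of 0.0195 in Tet2 KO and 0.0194 in WT, taken as the median of the values between 0.0125 and 0.0275. Of 568 and 656 genes below 4.5 steps, 89.3% and 89.0% lay within 0.2 of a whole step, where 40% would if values were spread evenly. Fragments per gene are approximate, more so for the short Sln. They, and the intervals, rest on reading the steps of the combined values as single fragments. Exact (Clopper-Pearson) 95% intervals of a ratio cover counting error only.

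Positions come from the deposited table (mm9), whose starts were turned to counting from 1. Exons came from GENCODE vM1, and upstream sequences from RefSeq, matched exactly to mm9. Computations used pandas 2.3.3 and numpy 2.4.6 in Python 3.11.15, with scipy 1.17.1 for intervals.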

Additional observations from a re-analysis of the deposited data

How the results depend on the processing

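Atp2a1, Sln and Srl were the calcium genes at least 2-fold lower under every alternative that kept the 2-fold threshold, namely a pseudocount of 0.1 FPKM, no pseudocount, no filter on low values, a mean FPKM of at least 5 and TPM. A 3-fold threshold left 0 of them, and a 1.5-fold threshold counted 4, with Atp2b4. The median log2 ratio of the calcium genes that passed the filter was -0.60 and became -0.71 with a pseudocount of 0.1, -0.73 with none, -0.18 with no filter, -0.91 at a mean FPKM of at least 5 and -0.65 as TPM. Of the other calcium handling genes, 7 lower ones became 11 with a pseudocount of 0.1, 11 with none and 10 as TPM. They became 6 at a mean FPKM of at least 5, where Trdn dropped out, 17 at 1.5-fold and 1 at 3-fold. The 2 higher ones became 1 at 3-fold. Over all genes, 142 lower ones became 215 with a pseudocount of 0.1, 224 with none, 338 at 1.5-fold and 25 at 3-fold. The 243 higher ones became 109 at a mean FPKM of at least 5, 435 at 1.5-fold and 81 at 3-fold. Without Atp2a3 in the sum, Atp2a1 made up 8.98% of SERCA transcripts in Tet2 KO and 18.9% in WT, and with 1 FPKM added to each gene the ratio of Sln to Atp2a1 in WT was 0.927. No direction was reversed under any of these alternatives. No paired analysis was possible because the table holds 1 pooled value per group, and for the same reason leaving out single libraries was not run. The spread between mice or cultures therefore remains unknown for each difference given here. For Pvalb the depth is too low to place the ratio, and for Pln counting alone places it only between 72.1% and 131% of WT.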

Other observations

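Outside SR and plasma membrane calcium transport, Mcub, the gene of a subunit known to lower calcium uptake through the mitochondrial uniporter, had 8.12 FPKM in Tet2 KO against 1.98 in WT, a log2 ratio of 1.61. Mcu, the pore of that uniporter, had 19.7 FPKM in Tet2 KO against 28.4 in WT, a log2 ratio of -0.51. Mcub was the only one of 12 mitochondrial calcium genes past 2-fold, and the median of that list was -0.03. Over all genes that passed the level filter, 1.21% were lower and 2.08% were higher. Mcub and Fxyd5 (below) were the 2 higher ones of the 86 genes of the 7 lists that passed, close to the share over all genes. Vdac2, an outer membrane channel and the most abundant of them, had 227 and 216 FPKM. The level of Mcub in Tet2 KO was 0.412 of the level of Mcu, and in WT it was 0.0696.

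Of 22 genes of other P-type pumps and their subunits, 16 passed the level filter, with a median log2 ratio of -0.07. Fxyd5, which encodes a small membrane protein of the FXYD family, was the only one of them at least 2-fold higher, where 2.08% of all genes that passed were. It had 23.3 FPKM in Tet2 KO against 7.47 in WT, a log2 ratio of 1.52. The leukocyte markers had a median log2 ratio of 1.59, and their part in the higher values of Mcub and Fxyd5 was not tested.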
